A study of Oryza sativa with 9 samples.

Results

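The genes described here are 51 rice genes whose leaf transcript level was highest in 1 of 2 lines labelled with the genotype osatxr5c;osatxr6kd, called mutant line 2. They were chosen by their measured transcript levels among the 55986 genes of the series' table. The level is in TPM, a transcript abundance that divides reads by gene length and is scaled to a total of 1000000 in every library. A gene was a member if its mean TPM over the 9 libraries was at least 1 and its lowest line 2 library was at least 2 times the highest of the 6 other libraries. In addition, the mean of mutant line 1 had to be under 2 times the wild-type (WT) mean, or both means had to be 0. The mean TPM minimum left 19345 genes, called tested genes below, of which the members were 0.264%. Because all 9 libraries entered the rule, the height of line 2 over the other groups is a description. Calls by a gene-wise test are given below only beside their share over all tested genes, and do not test it.

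The groups were WT plants, titled NP, and lines 1 and 2 of osatxr5c;osatxr6kd, with 3 libraries each. All were leaves taken at 40 days from plants grown in paddy fields. The labels do not spell out what the suffixes c and kd in the genotype stand for, how the lines differ, or whether a replicate number stands for a separate plant, so the spread between libraries may be technical. The libraries listed between 21798 and 22621 genes above 0, and their depth is unknown because TPM does not keep it. In whole leaves, more cells of a type and more RNA per cell cannot be told apart.

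ATXR5 and ATXR6 are plant enzymes that add a single methyl group to lysine 27 of histone H3. In Arabidopsis they act on the histone variant that is laid down during DNA replication, and their loss is known for reactivated transposons and for changes in heterochromatin. OsATXR5 and OsATXR6 are the rice counterparts. None of the 51 identifiers matched a name among the 39387 rice gene records used here, and the files pair no identifier with a name. The function of the members, the level of the targeted genes and the leaf markers were therefore not analysed here. Genes are given by identifier, in which the digits after Os number the chromosome and the digits after g run along it.

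Summed over the 51 members, transcript level was 334, 330 and 321 TPM in the WT libraries, 442, 447 and 440 TPM in line 1 and 1289, 1290 and 1273 TPM in line 2. With n = 3 libraries per group, the sum averaged 328 TPM with an SD of 6.57 in WT. It averaged 443 TPM with an SD of 3.26 in line 1, and 1284 TPM with an SD of 9.59 in line 2. Line 1 thus lay above WT in the sum, in all 3 libraries, and far below line 2, the latter because of the rule. Members with high levels weigh most in a sum. Gene by gene, the line 1 mean was above the WT mean in 37 members and below it in 12. The median member was at 3.04 TPM in WT, 3.77 TPM in line 1 and 12.8 TPM in line 2, while the median tested gene was at 13.2, 12.8 and 13.6 TPM. In line 2, 11 members had a mean under 5 TPM, 21 lay between 5 and 20 TPM, and 19 were at 20 TPM or more.

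**Figure D1:**
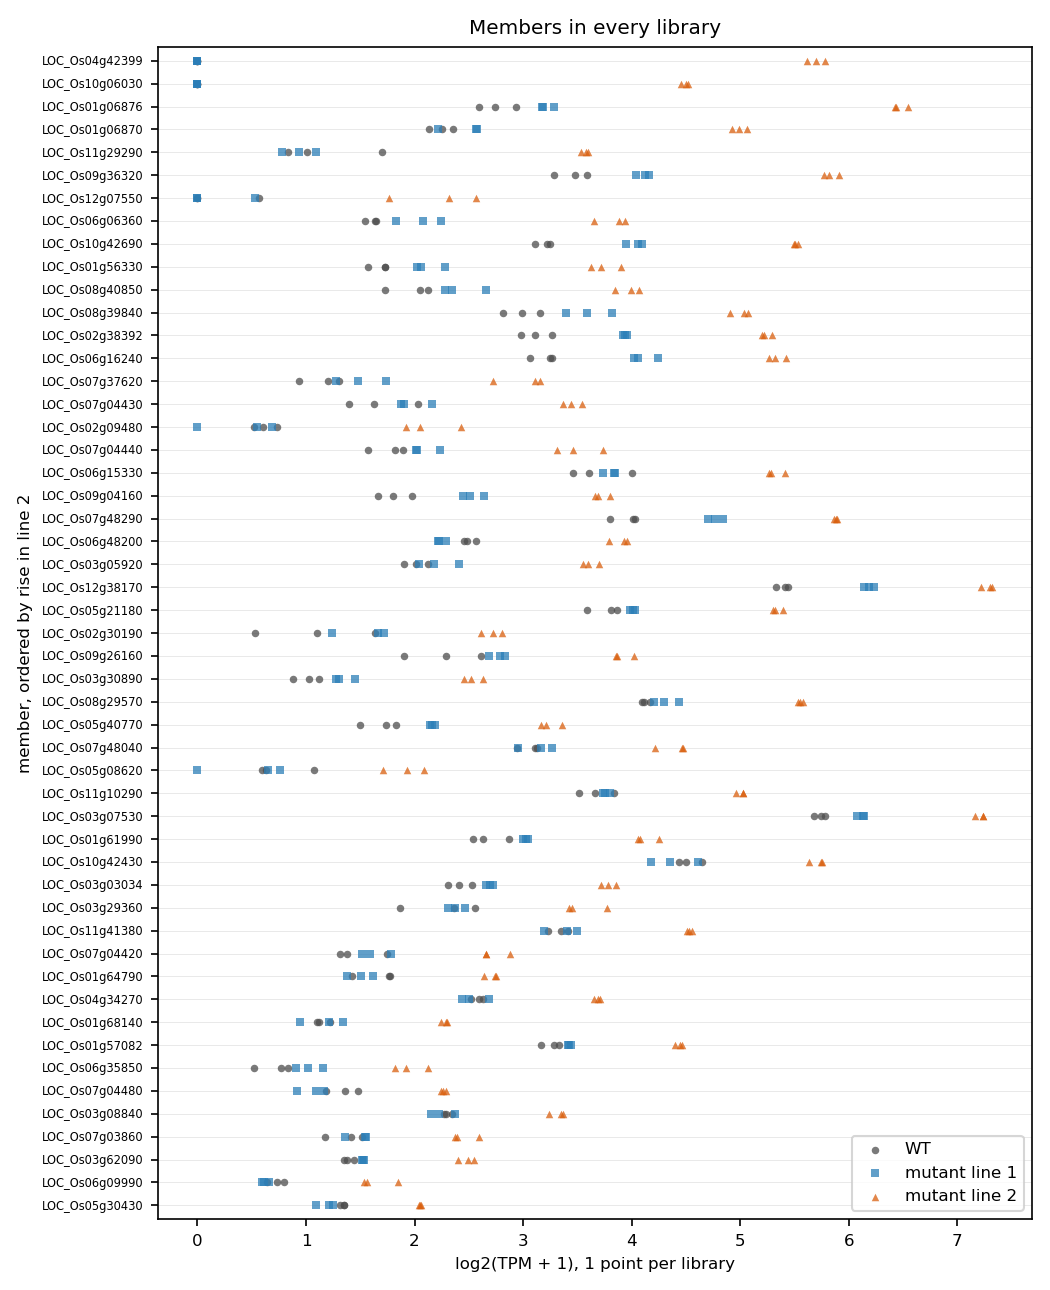
Level of each of the 51 members in each of the 9 libraries, as log2(TPM + 1) on the horizontal axis, with members ordered from the largest to the smallest rise in line 2. Triangles are line 2, squares line 1 and circles WT. The line 2 points lie to the right in every row because the rule requires it, and in 24 rows all squares lie to the right of all circles.

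Most members already had a measurable level outside line 2. A level of 0 in every WT and line 1 library was listed for 2 of the 51, and 0 in some of those libraries for 3 more, while 46 were above 0 in all 9. The lowest non-zero value of a library was 0.303 to 0.327 TPM, and no value between 0 and that edge is listed. The median coefficient of variation of the members was 5.62% in line 2, where all tested genes had 6.59%, and it exceeded 15% in 6 members. In WT it was 12.2% against 8.88% for all tested genes, and in line 1 it was 10.9% against 8.53%. The rule favours genes with little spread in line 2, so nothing is read from these differences.

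Both members listed at 0 elsewhere were at moderate levels in line 2. LOC_Os04g42399, on chromosome 4, was at 48.1, 50.9 and 53.9 TPM in line 2. LOC_Os10g06030, on chromosome 10, was at 21.7, 22.0 and 20.9 TPM. No fold is given, since a listed 0 has no size. In the rows directly beside them in identifier order, line 2 did not stand above the other groups. Both rows beside LOC_Os10g06030 were at 0 in every library, and in the row after LOC_Os04g42399 all line 2 libraries were below all WT libraries.

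The 3 members at 0 in some libraries had low levels throughout. LOC_Os12g07550 was at 4.92, 2.39 and 3.98 TPM in line 2, and among the other libraries it was above 0 in 1 WT library (0.479 TPM) and 1 line 1 library (0.444 TPM). LOC_Os02g09480 was at 0.663, 0.523 and 0.430 TPM in WT, at 0.460 and 0.612 TPM in 2 line 1 libraries with the other at 0, and at 3.13, 4.39 and 2.80 TPM in line 2. The third was LOC_Os05g08620, at 1.11, 0.547 and 0.513 TPM in WT, at 0.697 and 0.570 TPM in 2 line 1 libraries with the other at 0, and at 2.81, 2.27 and 3.25 TPM in line 2. It had the most negative difference of line 1 from WT among the members, -0.30 ± 0.21 (SE) on the log2(TPM + 1) scale, but its line 1 and WT libraries overlapped.

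Among the 46 members above 0 in all 9 libraries, the line 2 mean was 2.06 to 15.2 times the WT mean, with a median of 3.44. It was 2.12 to 11.9 times the line 1 mean, with a median of 2.65. The largest rises over WT were in 2 genes with adjoining identifiers on chromosome 1. LOC_Os01g06876 was at 5.04, 5.67 and 6.64 TPM in WT, 8.08, 8.73 and 8.05 TPM in line 1 and 85.2, 85.3 and 92.3 TPM in line 2. The line 2 mean was 15.2 times the WT mean and 10.6 times the line 1 mean. LOC_Os01g06870 was at 3.75, 4.11 and 3.39 TPM in WT, 4.92, 4.95 and 3.63 TPM in line 1 and 29.3, 30.7 and 32.4 TPM in line 2. Its line 1 and WT libraries overlapped, whereas those of LOC_Os01g06876 did not. LOC_Os11g29290 followed, with 2.24, 1.01 and 0.782 TPM in WT, 0.906, 0.711 and 1.13 TPM in line 1 and 11.1, 10.6 and 10.9 TPM in line 2. Its WT libraries spread widely, and line 1 lay within their range apart from 1 lower library.

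The 2 members with the highest line 2 level rose by smaller factors. LOC_Os12g38170 was at 41.6, 39.3 and 42.5 TPM in WT, 74.0, 69.4 and 71.6 TPM in line 1 and 156, 159 and 148 TPM in line 2. LOC_Os03g07530 was at 53.9, 52.8 and 50.2 TPM in WT, 69.7, 66.5 and 69.0 TPM in line 1 and 150, 149 and 142 TPM in line 2. In both genes the groups were separate and line 1 lay between WT and line 2. On the log2(TPM + 1) scale the change of line 2 against WT was 1.88 ± 0.06 (SE) for LOC_Os12g38170 and 1.47 ± 0.05 (SE) for LOC_Os03g07530, and the change of line 1 was 0.79 ± 0.06 (SE) and 0.38 ± 0.05 (SE).

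**Figure D2:**
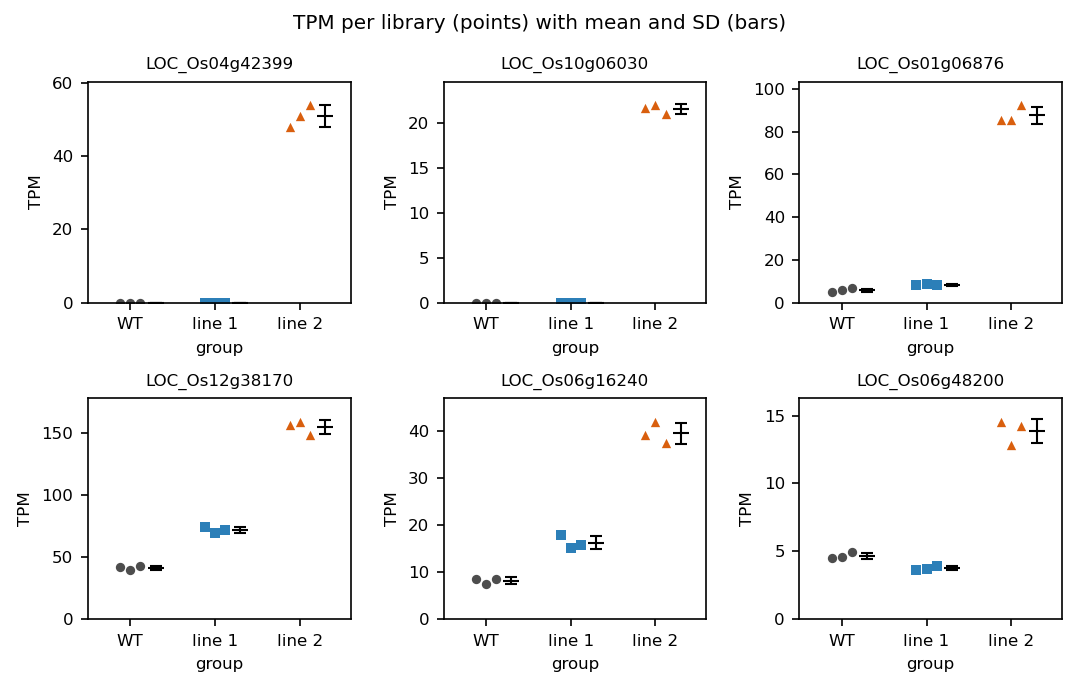
TPM of 6 members in the 3 libraries of each group (points), with the mean and SD of each group (bars). LOC_Os04g42399 and LOC_Os10g06030 are at 0 outside line 2, LOC_Os01g06876 is 15.2 times WT in line 2, LOC_Os12g38170 and LOC_Os06g16240 have line 1 between WT and line 2, and LOC_Os06g48200 has line 1 below WT.

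The working description of these genes, raised only in line 2, did not hold for all of them. In 24 of the 51 members all 3 line 1 libraries lay above all 3 WT libraries, a separation found in 14.0% of all tested genes. In 3 members all line 1 libraries lay below all WT libraries, against 24.0% of all tested genes, and in the other 24 members the libraries of line 1 and WT overlapped or were equal. Among the 24 members with line 1 above WT, the line 1 mean was 1.14 to 1.99 times the WT mean, with a median of 1.52. The rule kept line 1 under 2 times WT, so these shares are a description of what it let through. LOC_Os06g16240 lay nearest to that limit, at 8.51, 7.38 and 8.63 TPM in WT, 17.9, 15.2 and 15.7 TPM in line 1 and 39.1, 42.0 and 37.5 TPM in line 2. LOC_Os10g42690 was similar, at 8.29, 8.49 and 7.62 TPM in WT, 14.4, 16.1 and 15.7 TPM in line 1 and 45.3, 44.1 and 44.4 TPM in line 2. The line 1 mean was 1.99 times WT in the first gene and 1.89 times WT in the second.

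In 24 members the WT and line 1 libraries were not separate. LOC_Os03g08840 was at 4.07, 3.88 and 3.84 TPM in WT, 4.19, 3.43 and 3.68 TPM in line 1 and 8.42, 9.22 and 9.31 TPM in line 2. LOC_Os04g34270 was at 4.73, 5.02 and 5.20 TPM in WT, 4.42, 5.44 and 4.67 TPM in line 1 and 11.6, 11.9 and 12.1 TPM in line 2. In both genes the WT and line 1 libraries overlapped, and the difference of line 1 from WT was -0.05 ± 0.10 (SE) and -0.04 ± 0.10 (SE) on the log2(TPM + 1) scale. Overlap did not always go with near-equal means. Among overlapping members the line 1 mean ranged from 0.585 times WT in LOC_Os05g08620 to 1.57 times WT in LOC_Os02g30190.

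Over the 49 members with a level above 0 outside line 2, the line 1 mean was at least 1.5 times WT in 15, between 1.25 and 1.5 times in 8, within 1.25 times either way in 21, and at 0.8 times WT or less in 5. The median change of line 1 against WT was 0.20 in the members and -0.06 in all tested genes on the log2(TPM + 1) scale. The median change of line 2 against WT was 1.55 in the members and 0.00 in all tested genes. Both changes are measured from the same WT libraries.

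A gene-wise test, limma on log2(TPM + 1) with Benjamini-Hochberg adjustment over all tested genes, gives the scale of these differences. A gene is called at an adjusted p of 0.05. All 51 members were called higher in line 2 against WT, where 13.5% of all tested genes were, and all 51 were called higher in line 2 against line 1, where 15.2% were. The rule fixed both directions, so nothing is read from these counts. In line 1 against WT, which the rule limited, 18 members were called higher, against 9.94% of all tested genes, and limma called 0 lower, against 15.7%. At an unadjusted limma p under 0.05, 1 member was lower. The share over all tested genes was not counted at that threshold, so nothing is read from this count. After median-ratio scaling 21 members were called higher in line 1, where 2518 of all tested genes were. After quantile normalization 19 members were called higher and 3 lower, where 2060 and 2837 of all tested genes were. Over all tested genes, 2941 were called higher and 1315 lower in line 2 against line 1, but median-ratio scaling gave 1921 and 1931, and quantile normalization gave 2183 and 1706. In line 2 against WT 2613 were higher and 1623 lower, but 2268 and 2279 after quantile normalization. In line 1 against WT 1922 were higher and 3031 lower, but 2518 and 1978 after median-ratio scaling. In the 18 called members the line 1 mean was 1.21 to 1.99 times WT.

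**Figure D3:**
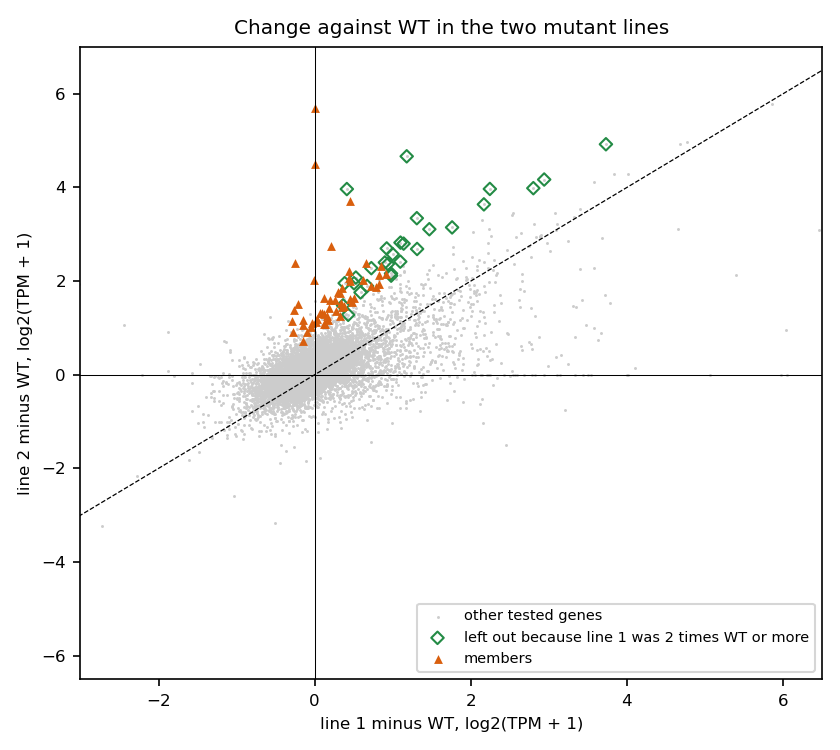
Change against WT in line 1 (horizontal) and line 2 (vertical), both as differences of mean log2(TPM + 1), for the 51 members (triangles), the 28 genes left out by the limit on line 1 (diamonds) and the other tested genes (dots). The dashed line marks equal changes. Both axes share the WT libraries. Members lie above the dashed line by choice, and they run on into the diamonds without a gap.

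The limit on line 1 cut through a continuous range. A total of 79 tested genes had their lowest line 2 library at 2 or more times the highest other library. Of these, 28 were left out because line 1 was at 2 or more times WT. Just inside the limit were LOC_Os06g16240, at 1.99 times WT, and LOC_Os09g04160, at 1.89 times. Just outside it were LOC_Os07g07990, at 2.12 times, and LOC_Os02g41510, at 2.17 times. The ratio of 2 for line 2 had no gap beside it either. Just inside were LOC_Os05g30430, at a ratio of lowest line 2 to highest other library of 2.002, and LOC_Os12g38170, at 2.003. Just outside were LOC_Os02g15540, at 1.998, and LOC_Os09g08130, at 1.994. Of the 49 members with a level above 0 elsewhere, 26 had a ratio under 2.25, 16 between 2.25 and 3, and 7 of at least 3.

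Whether the ratio of 2 recurred in left-out libraries was examined by leaving out 1 replicate number at a time. The rule was applied to the 6 libraries of the other numbers, and the 3 left-out libraries, 1 per group, were then compared. Without the libraries numbered 1, 73 genes met the rule, and in 59 of them (80.8%) the left-out line 2 library was at least 2 times both other left-out libraries. Among all genes averaging 1 TPM or more in the libraries used, 1.10% were. Without the libraries numbered 2, 63 of 77 genes (81.8%) held, against 1.24%, and without those numbered 3, 62 of 69 (89.9%) held, against 1.29%. In 72 of the 73, 77 of the 77 and 69 of the 69 genes the left-out line 2 library was the highest of the 3. The share of all genes with that order was not counted, and the members among them had it by the rule. Nothing is therefore read from these counts of the highest library. The median difference of the left-out line 2 library from the higher of the other left-out libraries was 1.04, 1.07 and 1.15 on the log2(TPM + 1) scale. For all genes it was -0.04, -0.10 and -0.06. Of the genes chosen, 49, 50 and 50 were members, which held by the full rule. Among the others 10 of 24, 13 of 27 and 12 of 19 held. The left-out libraries come from the same 3 groups and may be technical repeats, so the check does not reach new plants. No p is given because each group has 1 left-out library.

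The members were spread over all 12 chromosomes. Chromosome 7 held 8 of the 51 (15.7%), against 7.83% of all tested genes, and chromosome 6 held 6 (11.8%), against 8.05%. Chromosome 2 held 3 (5.88%), against 12% of the tested genes, and chromosome 4 held 2 (3.92%), against 8.72%. No test was made of these shares. Most members stood alone: only 6 of the 51 lay within 10 rows of another member in identifier order, 2 in the adjoining rows on chromosome 1 and 4 in a stretch on chromosome 7.

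The stretch on chromosome 7 was a run of 11 genes, from LOC_Os07g04380 to LOC_Os07g04500, in which all 3 line 2 libraries lay above the 6 others. It was found by looking along the identifiers after the values were seen. Rows at 0 in all libraries were passed over, 2 of them inside the run. No other such run was longer than 5 genes, and the longest runs with line 2 below all others, line 1 above all others or WT above all others held 5, 4 and 4 genes. Among single tested genes, line 2 lay above all 6 others in 11.6%. After quantile normalization the run held 7 genes and the next longest 4. Without line 2 replicate 1 the run held 11 genes and the next longest 7. The members in the run met this condition by the rule.

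The 4 members in the run had low levels. LOC_Os07g04420 was at 1.48, 2.36 and 1.60 TPM in WT, 2.01, 2.44 and 1.86 TPM in line 1 and 5.31, 5.30 and 6.34 TPM in line 2. LOC_Os07g04430 was at 3.09, 2.08 and 1.63 TPM in WT, 2.66, 2.74 and 3.47 TPM in line 1 and 9.32, 9.88 and 10.7 TPM in line 2. In both genes WT and line 1 overlapped. LOC_Os07g04440 was at 1.98, 2.71 and 2.53 TPM in WT, 3.72, 3.07 and 3.04 TPM in line 1 and 10.03, 8.91 and 12.3 TPM in line 2, with the groups apart. LOC_Os07g04480 was at 1.57, 1.78 and 1.27 TPM in WT, 1.25, 1.14 and 0.894 TPM in line 1 and 3.87, 3.73 and 3.79 TPM in line 2, with line 1 below WT.

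The other 7 genes of the run missed the rule, and 2 of them were much more highly expressed. LOC_Os07g04450 was at 22.8, 25.5 and 26.5 TPM in WT, 18.8, 14.97 and 16.6 TPM in line 1 and 37.1, 47.1 and 46.9 TPM in line 2. LOC_Os07g04500 was at 85.4, 84.1 and 86.2 TPM in WT, 67.2, 48.8 and 55.0 TPM in line 1 and 103, 118 and 105 TPM in line 2. In these 2 genes line 1 was below WT and line 2 above it, and the line 2 mean was 1.75 and 1.28 times the WT mean. In the 7 genes of the run above 0 in all 9 libraries the line 2 mean was 1.28 to 4.39 times WT, with a median of 2.64. No fold is given for LOC_Os07g04380, LOC_Os07g04390, LOC_Os07g04400 and LOC_Os07g04410, which were at 0 in some libraries of WT or line 1. Some of these stood only narrowly or at low levels above the others. The lowest line 2 library of LOC_Os07g04410 was at 2.36 TPM, against 2.15 TPM in a line 1 library. For LOC_Os07g04400 it was 2.07 TPM, against 1.39 TPM in a WT library. LOC_Os07g04380, at 1.22 to 1.59 TPM in line 2, was not a tested gene. The next row above 0, LOC_Os07g04530, had line 2 and line 1 overlapping. Genes that share reads with similar copies or overlapping neighbours are uncertain, because the handling of such reads is not given in the sources used here.

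**Figure D4:**
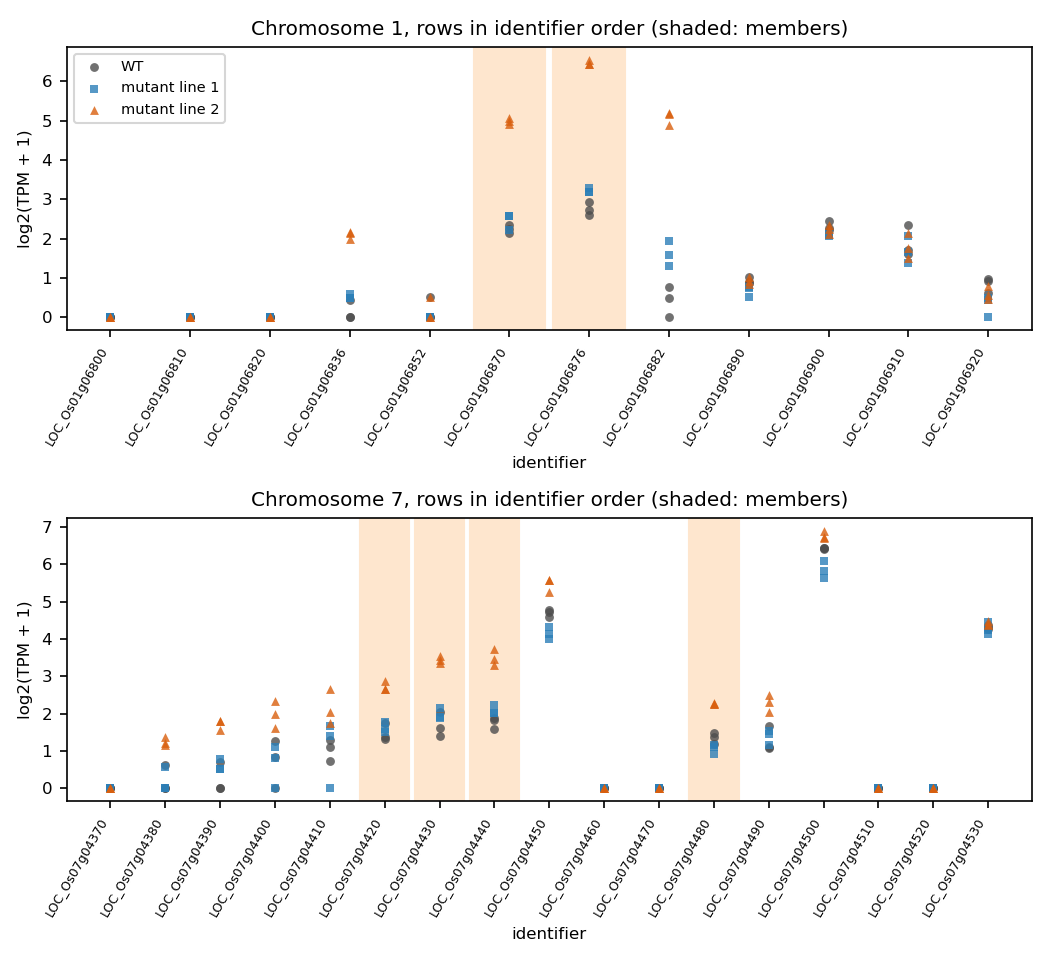
log2(TPM + 1) in the 9 libraries for the rows around the adjoining members on chromosome 1 (top) and the run on chromosome 7 (bottom), in identifier order, with members shaded. On chromosome 7 the line 2 triangles are highest in 11 rows above 0 in a row, and on chromosome 1 in 3.

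On chromosome 1 the row after LOC_Os01g06876, LOC_Os01g06882, was left out of the members by the limit on line 1. Its WT libraries were at 0, 0.400 and 0.710 TPM and its line 1 libraries at 2.81, 1.45 and 1.98 TPM. In line 2 it reached 28.8, 35.7 and 34.8 TPM. Before these 3 genes, LOC_Os01g06836 was at 2.99 to 3.45 TPM in line 2 and at 0.515 TPM or less elsewhere. The row between it and LOC_Os01g06870, LOC_Os01g06852, was not raised in line 2. It was at 0.430 TPM in 1 WT and 1 line 2 library and at 0 in the others. Across the members as a whole, 95 tested genes stood next to a member without being one, and line 2 lay above all 6 others in 20 of them (21.1%), against 11.6% of all tested genes. Outside the 2 stretches and their flanks of 5 rows this held for 15 of 90 (16.7%). The median difference of line 2 from the 6 others was 0.08 in those 90 genes and 0.04 in all tested genes on the log2(TPM + 1) scale.

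The rule with the lines exchanged gave 125 genes for line 1. Of these, 28 were listed at 0 in all 6 libraries of WT and line 2, against 2 of the 51 for line 2. In 36 of the 125, all line 2 libraries lay above all WT libraries, where 21.1% of all tested genes did. Each chromosome held 4 to 19 of them, with 12 on chromosome 7. The longest run of genes with line 1 above all others held 4 genes, and the 3 runs of that length lay on chromosomes 2, 9 and 12. These sets were chosen from the same 9 libraries and their difference was not tested.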

How the data were processed

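The data are 9 RNA sequencing libraries from rice leaves. The authors deposited 1 table of TPM values with 1 column per library, matched to samples by title, and every column sums to 1000000. The submitters' processing notes name fastp 0.20.1, HISAT2 2.1.10 and DESeq2 1.26.0 with no role. The quantifier, build, annotation and strand are not given in the sources used here. The depth is unknown, so precision rests on the spread of 3 libraries per group.

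Members and lists were chosen with earlier results of these data known. Genes averaging 1 TPM or more over the 9 libraries were fitted together by limma 3.58.1 (R 4.3.3), with log2(TPM + 1) as the response, a mean per group and a trend on mean expression. A gene was called at a two-sided adjusted p of 0.05. The pseudocount of 1 in log2(TPM + 1) understates changes of low genes. Named by rule were the 2 largest rises of line 2 and the 2 largest falls of line 1 (LOC_Os05g08620 and LOC_Os07g04480). That rule gave no identifier to the rest; every other gene named was singled out after its values were seen. Replicate numbers were not treated as pairs. Alternatives were other scalings, minimums, pseudocounts, ratios and left-out libraries. Groups by annotation and tissue markers were designed but not analysed, as no identifier matched a name.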

Additional observations from a re-analysis of the deposited data

Results flagged for a closer look

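In 3 members all line 1 libraries lay below all WT libraries while all line 2 libraries lay above them, so the lines of the same genotype label lay on opposite sides of WT. Line 1 libraries all below WT libraries were found in 24.0% of all tested genes, against 5.88% of the members. The share of all tested genes that also had line 2 above WT was not counted. Whether opposite sides were more or less frequent among the members is therefore not known. The difference between the lines was part of the choice of these genes and was not tested. LOC_Os06g48200 was at 4.49, 4.59 and 4.93 TPM in WT, 3.63, 3.66 and 3.90 TPM in line 1 and 14.6, 12.8 and 14.2 TPM in line 2, a difference of -0.26 ± 0.10 (SE) in line 1 on the log2(TPM + 1) scale. LOC_Os07g04480, in the chromosome 7 run, differed from WT by -0.28 ± 0.13 (SE) in line 1. LOC_Os05g30430 was at 1.54, 1.48 and 1.56 TPM in WT, 1.37, 1.31 and 1.14 TPM in line 1 and 3.18, 3.15 and 3.11 TPM in line 2, a difference of -0.15 ± 0.12 (SE) in line 1. None of the 3 differences was called by limma on the values as deposited, and the median change of line 1 over all tested genes was -0.06.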

How the results depend on the processing

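The number of members rested on the thresholds of the rule. It was 51 as reported, 178 with a ratio of 1.5, 9 with a ratio of 3 and 98 with no minimum TPM. With a minimum mean of 5 TPM it was 34. After median-ratio scaling and after quantile normalization it was 40, of which 39 were among the 51 in each case. Without single libraries it was 52 to 60, and 48 to 51 of the 51 remained. The members tested under each alternative (34 at a minimum mean of 5 TPM, otherwise 51) were called higher in line 2 against both other groups, but the rule chose them for this difference, so it says nothing about stability. Members called higher in line 1 against WT numbered 13 to 21 under the alternatives other than left-out libraries, and 13 to 17 when single libraries were left out. Over all genes fitted these higher calls numbered 1508 to 2518 and 1666 to 1865. The lower calls over all genes fitted numbered 3031 as reported, 2980 with a pseudocount of 0.1, 2837 after quantile normalization and 2243 to 3058 without single libraries. Members called lower in line 1 numbered 0 as reported, 1 with a pseudocount of 0.1, 3 after quantile normalization and 0 to 1 without single libraries, the 1 being without line 1 replicate 2. The cause was not tested.

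Counts over all genes stayed within 1.5 times, except the higher calls of line 2 against line 1 (2941, and 1921 after median-ratio scaling) and the lower calls of line 1 against WT (3031, and 1978). Same-numbered libraries deviated together weakly across genes, with r from 0.0116 to 0.212. It was under 0.1 in every pair of line 2 with line 1 and in some pairs of each other comparison. In 15 of 18 cases a library correlated best with its own number in another group, a hint from the data and not from the design. The cases are not independent, since each library enters more than 1 of them. With a replicate block 4301 genes were called in line 2 against WT, 4381 in line 2 against line 1 and 5076 in line 1 against WT. Called higher in line 1 against WT were 17 members and 1976 of all tested genes, and no other member count moved. The chromosome 7 run, examined after the data were seen, held 11 genes as reported and after median-ratio scaling, 7 after quantile normalization and 11 to 12 without single libraries. The next longest run held 5 genes as reported, 4 after either scaling and 5 to 7 without single libraries. The cause of the shorter chromosome 7 run was not tested. The unknown depth limits low members most, since no value between 0 and 0.303 TPM is listed.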

Other observations

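With WT in the place of line 2, 7 genes had their lowest WT library at 2 or more times the highest mutant library. The same count was 79 for line 2 and 159 for line 1, each before any limit on the remaining group.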
